A study of Homo sapiens with 6 samples.

Results

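Transcripts of 10 vasoactive genes were examined in EA.hy926 cells at 2 oxygen levels: ADM, CALCRL, RAMP1, RAMP2, EDN1, ECE1, NOS3, PTGS1, PTGS2 and PTGIS. They were chosen by name for their roles in the adrenomedullin, endothelin, nitric oxide and prostanoid systems, with earlier results of these data known. Of these, 8 were found by symbol among the 22153 genes of the table. RAMP1 and RAMP2 were not analysed here. ADM, CALCRL, EDN1, ECE1, NOS3, PTGS1 and PTGS2 reached the level set for testing (FPKM of at least 1 in 3 or more of the 6 libraries), and PTGIS did not.

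Cells of the normoxia group (3 libraries) grew at 20% oxygen, those of the hypoxia group (3 libraries) spent 8 h at 1% oxygen, and polyadenylated RNA was sequenced from both. EA.hy926 is a permanent hybrid of human umbilical vein endothelium and the A549 lung carcinoma line, and all libraries come from this single line. All cultures shared high-glucose DMEM with fetal bovine serum. Whether the replicates were separate cultures is not said in the labels, so a p-value here reflects the spread among these libraries, possibly a technical one.

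Endothelial cells set vascular tone by releasing short-lived mediators that act on the smooth muscle beneath them and on the endothelium itself. Adrenomedullin is a dilator peptide whose receptor is the G protein-coupled receptor CALCRL paired with a RAMP accessory protein. Endothelin-1 is a constrictor peptide cut from an inactive precursor by the membrane protease ECE1. Nitric oxide comes from the synthase NOS3, and prostacyclin is made by a cyclooxygenase, PTGS1 or PTGS2, followed by prostacyclin synthase, PTGIS. ADM and EDN1 are both known as genes that the hypoxia-inducible factors (HIF) can bind and activate.

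HIF recognises a short core that reads ACGTG or GCGTG on either strand, and stretches around this core are shown for ADM and EDN1 because their hypoxia values did not overlap those of normoxia, with NOS3 beside them, whose values did. Sequences are from RefSeq (GRCh38.p14), written 5′ to 3′ on the strand of the gene, with the core in capitals. CACGT is ACGTG read on the other strand.
ADM, chr11:10304960-10304988: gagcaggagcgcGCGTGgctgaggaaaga
EDN1, chr6:12290226-12290254: tatctccggctgCACGTtgcctgttggtg
NOS3, chr7:150993602-150993630: tcaggccagcggGCGTGgagctgaggctt

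The ADM core lay 97 to 101 bases before the RefSeq start, and the EDN1 core 119 to 123 bases before the most downstream of its 3 RefSeq starts. The whole 250 bases before that EDN1 start (chr6:12290111-12290360, plus strand) are given with the same capitals, since the matched letters sit in the middle of them.
EDN1, upstream window: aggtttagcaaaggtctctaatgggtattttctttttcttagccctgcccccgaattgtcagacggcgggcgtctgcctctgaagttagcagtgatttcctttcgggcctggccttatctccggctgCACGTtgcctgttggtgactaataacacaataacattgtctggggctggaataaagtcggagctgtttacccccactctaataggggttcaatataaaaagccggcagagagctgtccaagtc

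RefSeq entries matched 7 of the 10 genes, with 14 windows of 250 bases because several genes have more than 1 start. Either core was present in 8 of these 14 windows, beside 43.2% of all 35116 windows of the same length. It was present in 59.0% of 7844 windows of tested genes, with 1 window per gene. Several members had more than 1 window, so the share of members and that of tested genes are on unlike units. No difference between them is read from these counts. ADM had a match in its only window and EDN1 in 2 of 3. ECE1 had a match in 2 of 4 windows, NOS3 in both of its overlapping windows and PTGS1 in 1 of 2. The single windows of CALCRL and PTGS2 had none of these letters. A match is a description of the letters and not a measured site. RAMP1, RAMP2 and PTGIS were not matched.

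The libraries held 17226736 to 18652704 reads assigned to genes. Endothelial markers were present, with 8 of 10 tested and PECAM1, CDH5, TIE1 and ESAM at 63.4 FPKM or more in every library, while EMCN and CLDN5 reached at most 0.0404 and 0.0865. The keratins KRT7, KRT8 and KRT18 were also high, at 123 to 634 FPKM, whereas the keratin KRT19 reached at most 0.456 and the epithelial adhesion molecule EPCAM at most 0.397. Libraries differed in how strongly their values leaned towards genes rich in guanine and cytosine (GC). This GC trend, a Spearman rho across the 10237 tested genes between GC content and a library's departure from the gene mean, was 0.69, 0.26 and -0.56 in normoxia replicates 1 to 3. In hypoxia replicates 1 to 3 it was -0.34, 0.50 and -0.38. Normoxia replicate 3 stood farthest from the rest, with correlations of 0.871 to 0.943 with the other libraries across genes.

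ADM, which encodes adrenomedullin, had the largest difference of the 8 genes. It had 750, 891 and 542 reads in normoxia replicates 1 to 3 and 2127, 5165 and 3787 in hypoxia replicates 1 to 3. Per gene length these were 16.4, 17.4 and 10.5 FPKM in normoxia and 45.4, 110 and 74.1 in hypoxia. All 3 hypoxia libraries lay above all 3 normoxia libraries, with a wide gap between the groups, and hypoxia replicate 2 was the highest. In bulk RNA, more cells carrying a transcript and more transcript per cell cannot be told apart.

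The group means of ADM were 14.7 ± 3.71 FPKM in normoxia and 76.6 ± 32.5 in hypoxia (SD, n = 3 per group), a ratio of 5.20. The limma log2 difference was 2.31 (SE 0.36, 95% interval 1.49 to 3.13), which is 4.97-fold with an interval of 2.81 to 8.77. It ranked 16 of 10237 by signed log2 difference, counted from the most positive, and 19 of 10237 by p-value. It did not pass the threshold over all genes, with a limma adjusted p of 0.107, nor by edgeR (adjusted p = 0.0980). ADM did pass by DESeq2 (adjusted p = 8.03e-07) and by limma after each library's GC trend was removed (adjusted p = 0.0154), and over 17 alternatives the adjusted p ran from 8.03e-07 to 0.640.

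Of the 7 genes tested, limma called 0 higher and 0 lower in hypoxia, where over all genes it called 0.0977% higher and 0% lower. At an unadjusted limma p under 0.05 there were 2 of 7, ADM and EDN1, beside 2.69% of all genes. EdgeR called 0 of 7 (0.0977% of all genes higher and 0% lower), and DESeq2 called ADM alone (0.44% of all genes higher and 0.0489% lower). After the GC correction limma also called ADM alone (0.195% of all genes higher and 0.00977% lower). The hypoxia values of ADM and EDN1 lay wholly above normoxia, as those of 4.77% of all tested genes did, and no member lay wholly below, as 2.72% did. The median log2 difference of the 7 members was 0.62 and that of all tested genes 0.00.

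**Figure D1:**
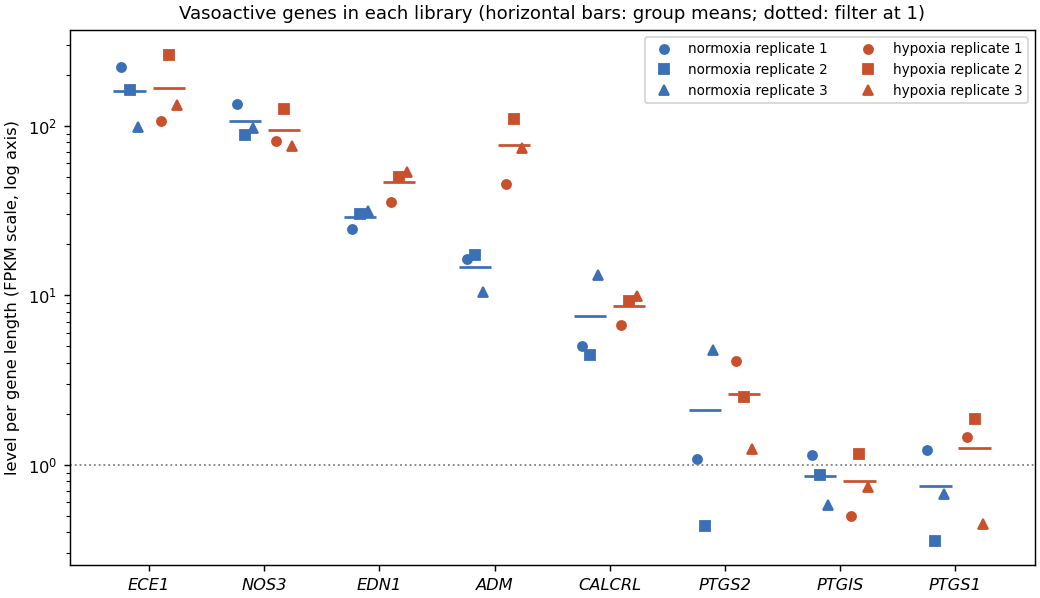
Level per gene length (FPKM scale, log axis) of the 8 genes in each of 6 libraries, ordered by the normoxia mean; symbols mark replicates, horizontal bars group means, and the dotted line the filter at 1. ADM sits at 10.5 to 17.4 in normoxia and 45.4 to 110 in hypoxia, EDN1 is separated by a smaller gap, and the other 6 genes overlap between groups.

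CALCRL, the receptor that binds adrenomedullin once it is paired with a RAMP protein, overlapped between groups. Its level was 5.00, 4.43 and 13.3 FPKM in normoxia and 6.70, 9.24 and 9.97 in hypoxia. Normoxia replicate 3 was above every other library, and the remaining normoxia libraries were below every hypoxia library. The log2 difference was 0.35 (95% interval -0.63 to 1.33, limma adjusted p = 1.00). It was 0.84 without normoxia replicate 3, 0.15 without normoxia replicate 1 and 0.06 without normoxia replicate 2. As a ratio the interval runs from 0.646 to 2.52, so it does not show that CALCRL was level.

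EDN1, the endothelin-1 precursor gene, stood at 24.7, 30.1 and 31.6 FPKM in normoxia and 35.6, 50.2 and 53.2 in hypoxia, from 847 to 2033 reads per library. Its groups did not overlap, but hypoxia replicate 1 was only a little above normoxia replicate 3. The means were 28.8 ± 3.64 and 46.3 ± 9.43 (SD, n = 3 per group), a ratio of 1.61. The log2 difference was 0.67 (SE 0.23, 95% interval 0.14 to 1.20, limma unadjusted p = 0.0196). It did not pass over all genes (limma adjusted p = 1.00, DESeq2 adjusted p = 1.00), and it stayed positive in all 17 alternatives, between 0.56 and 0.85.

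ECE1, which cuts big endothelin to the active peptide, was the most abundant of the 8 genes per length. It read 222, 162 and 97.8 FPKM in normoxia and 107, 263 and 132 in hypoxia. Its highest values came from hypoxia replicate 2 and normoxia replicate 1, the libraries with the strongest positive GC trend, and its lowest from normoxia replicate 3, with the most negative. The log2 difference was 0.03 (95% interval -0.92 to 0.97, limma adjusted p = 1.00). It became -0.29 without normoxia replicate 3 and -0.35 without hypoxia replicate 2. Its exons share 240 bp with AL031728.1 on the opposite strand, which had at most 4.73 size-factor-scaled reads.

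NOS3, the endothelial nitric oxide synthase, stood at 134, 87.9 and 97.3 FPKM in normoxia and 81.5, 126 and 75.7 in hypoxia. The groups overlapped, and normoxia replicate 1 and hypoxia replicate 2 were again the highest. The group means were 107 ± 24.6 and 94.5 ± 27.7 (SD, n = 3 per group). The log2 difference was -0.19 (95% interval -0.81 to 0.44, limma adjusted p = 1.00), and it was negative in all 17 alternatives, from -0.41 to -0.01. NOS3 exons share 786 bp, 13.2% of their length, with ATG9B on the opposite strand. ATG9B had 57.8 to 128 scaled reads and NOS3 8049 to 14294, and whether reads were counted by strand is not stated.

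**Figure D2:**
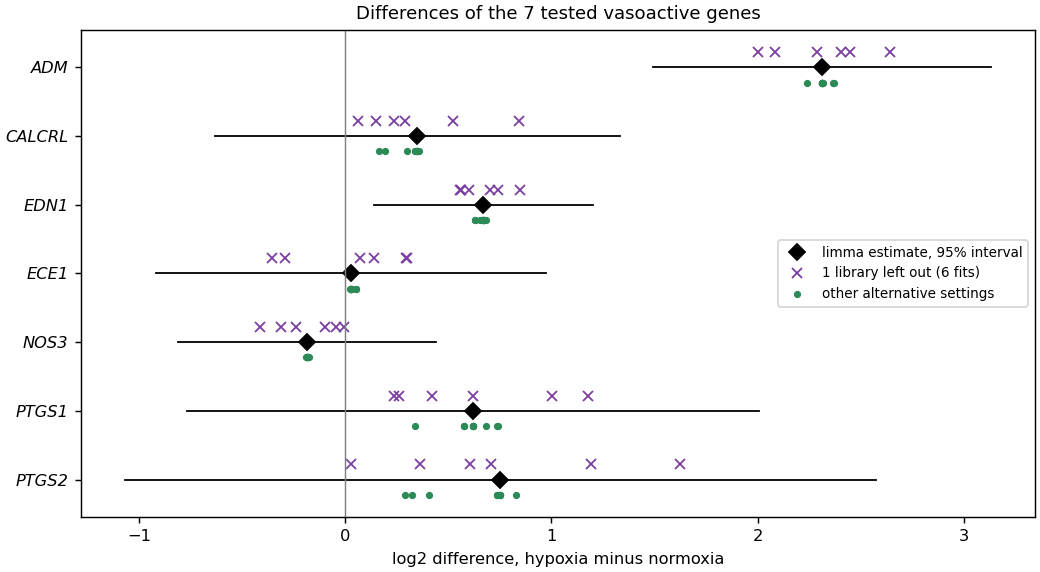
Log2 difference, hypoxia minus normoxia, of the 7 tested genes: diamonds and lines are limma estimates with 95% intervals, crosses the 6 fits with 1 library left out, and dots the other alternative settings. ADM lies at 2.31 with an interval of 1.49 to 3.13 and EDN1 at 0.67 with 0.14 to 1.20, while the intervals of the other 5 genes include 0.

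The prostanoid genes were near the limit of what was tested. PTGS1, the constitutive cyclooxygenase, had 119, 39 and 74 reads in normoxia and 146, 186 and 49 in hypoxia, or 0.357 to 1.22 and 0.450 to 1.86 FPKM. PTGS2, the inducible cyclooxygenase, had 96, 43 and 477 reads in normoxia and 373, 228 and 122 in hypoxia. Its normoxia libraries ran from 0.433 to 4.77 FPKM, and they spanned the whole hypoxia range of 1.23 to 4.11. The SD of PTGS2 in normoxia, 2.34 FPKM, exceeded its mean of 2.09.

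The log2 differences were 0.62 for PTGS1 (95% interval -0.77 to 2.01) and 0.75 for PTGS2 (95% interval -1.07 to 2.58), each with a limma adjusted p of 1.00. The value for PTGS2 ran from 0.03 without normoxia replicate 2 to 1.63 without normoxia replicate 3. That for PTGS1 ran from 0.24 without normoxia replicate 2 to 1.18 without hypoxia replicate 3. PTGIS, prostacyclin synthase, had 107, 92 and 61 reads in normoxia and 48, 111 and 78 in hypoxia, an FPKM of 0.862 ± 0.281 and 0.800 ± 0.331 (SD, n = 3 per group). Its groups overlapped.

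Ordered by level per length in normoxia, with the exon lengths used, the 8 genes ran ECE1, NOS3, EDN1, ADM, CALCRL, PTGS2, PTGIS and PTGS1. The ranges of ECE1 and NOS3 overlapped, as did those of ADM and CALCRL, of CALCRL and PTGS2, and of the 3 prostanoid genes. EDN1 lay apart from both neighbours. In hypoxia ADM stood between NOS3 and EDN1, with a range that overlapped NOS3 above it and EDN1 below it, and PTGS1 stood above PTGIS with overlapping ranges.

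Ratios between genes within a library do not depend on how libraries are scaled to each other. They were not corrected for the GC trend, which can enter where 2 genes differ in GC content, as EDN1 (45.1%) and NOS3 (62.6%) do. ADM per length was 0.662, 0.578 and 0.332 of EDN1 in normoxia and 1.28, 2.20 and 1.39 times EDN1 in hypoxia. With the exon lengths used, the dilator gene was below the constrictor gene in all 3 normoxia libraries and above it in all 3 hypoxia libraries. The length used for ADM, 2718 bp, equals its whole annotated span, and that of EDN1 was 2033 bp. A shorter spliced ADM length would raise every ADM ratio by a common factor. The side of 1 on which a ratio lies therefore rests on the lengths, and the separation of the groups does not. ADM over NOS3 went from 0.142 ± 0.0483 to 0.803 ± 0.220, and ADM over ECE1 from 0.0961 ± 0.0194 to 0.468 ± 0.0803 (SD, n = 3 per group). Neither overlapped between groups. EDN1 over NOS3, at 0.184, 0.342 and 0.325 in normoxia and 0.436, 0.397 and 0.703 in hypoxia, did not overlap either, whereas EDN1 over ECE1 did. These ratios were chosen after the values were seen and are given without a test.

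**Figure D3:**
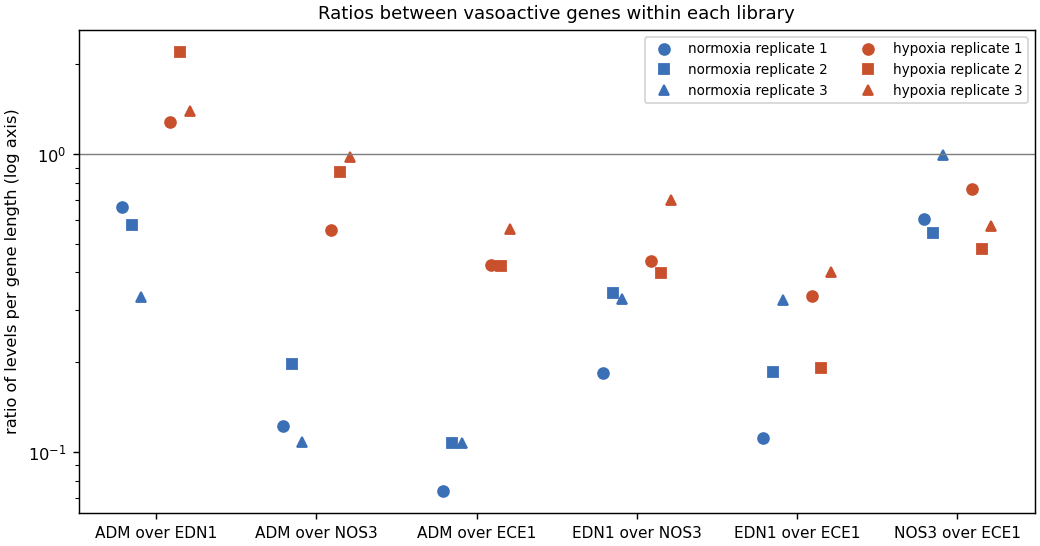
Ratio of the levels per gene length of 2 genes within each library (log axis), with colours for the groups and symbols for replicates. With the exon lengths used, ADM over EDN1 is 0.332 to 0.662 in normoxia and 1.28 to 2.20 in hypoxia, on either side of the line at 1. NOS3 over ECE1 overlaps between groups.

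The GC trend of the libraries moved with several of these genes. NOS3, ADM and ECE1 are GC-rich, with 62.6%, 58.5% and 58.5% GC in the longest transcript, beside a median of 49.5% over all tested genes, and CALCRL (33.9%) and PTGS2 (36.9%) are GC-poor. ECE1 was highest in the 3 libraries with a positive trend, and CALCRL and PTGS2 were highest in normoxia replicate 3. NOS3 followed the trend only in part, at 97.3 FPKM in normoxia replicate 3 and 87.9 in normoxia replicate 2. The summed level of the 10 endothelial markers followed the same order over the 6 libraries as ECE1, at 318 to 696 FPKM in normoxia and 375 to 921 in hypoxia. The summed level of the 5 epithelial markers with values was highest in normoxia replicate 3, at 694 to 1124 and 618 to 962. Both sums overlapped between groups, and the part of cell makeup in these results was not tested.

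After the trend was removed from each library, the ADM difference was 2.31 (SE 0.27 in place of 0.36) and that of ECE1 0.03 (SE 0.30 in place of 0.41). For CALCRL it was 0.34 (SE 0.33), for EDN1 0.63 (SE 0.22) and for NOS3 -0.18 (SE 0.21). The PTGS1 difference was 0.57 (SE 0.55 in place of 0.60) and that of PTGS2 0.74 (SE 0.60 in place of 0.79). The differences themselves therefore moved little. The standard errors of all tested members became smaller, that of EDN1 only from 0.23 to 0.22. The adjusted p of limma fell below 0.05 for ADM only among the members.

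**Figure D4:**
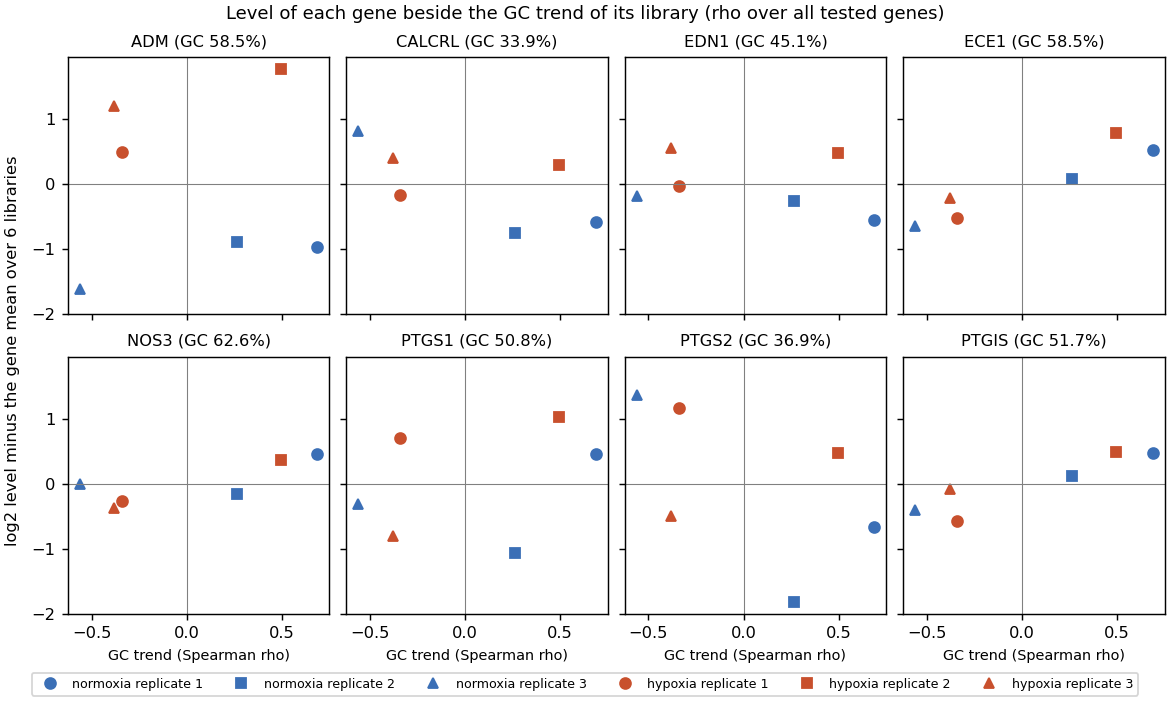
Log2 level of each of the 8 genes relative to its mean over the 6 libraries (vertical axis) against the GC trend of the library (horizontal axis, Spearman rho across tested genes), 1 panel per gene with the GC content of its longest transcript. ECE1 is highest in the 3 libraries with a positive trend, whereas ADM is separated by oxygen level at both ends of the trend.

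Other genes of the same systems were taken from 5 lists, with 109 genes together. Of these, 74 were found by symbol among the genes of the table. None of the 38 tested genes of these lists passed by limma, edgeR or DESeq2 (0.0977%, 0.0977% and 0.44% of all genes called higher). At an unadjusted limma p under 0.05 there was 1 of 38, APLN, beside 2.69% of all genes. In the adrenomedullin and CGRP list, 6 of 15 genes were tested, 3 positive and 3 negative, with a median log2 difference of 0.00. PAM, which amidates adrenomedullin to its active form, stood at 9.43 to 13.6 FPKM in normoxia and 8.99 to 20.3 in hypoxia (log2 difference 0.19). The peptide-degrading proteases MME and IDE had log2 differences of 0.21 (95% interval -0.95 to 1.37) and -0.11 (95% interval -1.32 to 1.11). ADM2, a related ligand singled out after its values were seen, had 0 reads in 4 libraries and at most 2 in the others.

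In the endothelin list only the proprotein convertases FURIN and PCSK7 were tested of 11 genes. FURIN stood at 62.2 to 139 FPKM in normoxia and 55.1 to 131 in hypoxia (log2 difference -0.22, 95% interval -1.19 to 0.75), and PCSK7 differed by -0.39. The receptors, singled out after their values were seen, were low. EDNRA had 2 reads in hypoxia replicate 3 and 0 elsewhere, and EDNRB had 43, 72 and 107 reads in normoxia and 47, 54 and 57 in hypoxia. EDN1, ECE1 and FURIN were thus well covered by reads in these cells, and the receptor genes were not.

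In the nitric oxide list 20 of 29 genes were tested, 10 positive and 10 negative, with a median of 0.00. The cyclic GMP phosphodiesterase PDE5A had the largest difference, 0.82 (95% interval -0.42 to 2.05; 0.44 without normoxia replicate 1 and 1.27 without normoxia replicate 3), at 0.285 to 1.46 FPKM. CAV1, the caveolar protein that binds and restrains NOS3, stood at 153, 160 and 276 FPKM in normoxia and 288, 214 and 231 in hypoxia (log2 difference 0.36, or 0.21 without normoxia replicate 1 and 0.63 without normoxia replicate 3). The arginase ARG2, which competes with NOS3 for arginine, differed by 0.44, with a range of 0.04 (without normoxia replicate 3) to 0.74 (without normoxia replicate 2), and its exons share 904 bp with VTI1B on the opposite strand, a gene with more reads. GUCY1B1, a subunit of the nitric oxide receptor guanylate cyclase and also singled out after its values were seen, had 6 to 17 reads per library.

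In the prostanoid list 9 of 25 genes were tested, 5 positive and 4 negative, with a median of 0.03. The prostaglandin E2 receptor PTGER4 had the largest difference, -0.79 (95% interval -1.84 to 0.27; -0.36 without hypoxia replicate 3 and -1.14 without hypoxia replicate 1), at 3.44, 1.90 and 3.80 FPKM in normoxia and 2.77, 1.83 and 0.873 in hypoxia. The synthases PTGES2 and AKR1C3 differed by -0.28 and 0.27, or -0.09 without normoxia replicate 3 and 0.08 without hypoxia replicate 3. Groups overlapped for all 3 of these genes.

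APLN, which encodes the dilator peptide apelin, was the only tested gene of 29 in the list of other vasoactive peptides and receptors. Only 8 of those 29 were found by symbol among the genes of the table. APLN stood at 77.8, 84.8 and 57.9 FPKM in normoxia and 127, 158 and 95.7 in hypoxia, without overlap. It was the 1 of 38 tested list genes that lay wholly above normoxia, as 4.77% of all tested genes did. Its log2 difference of 0.77 (95% interval 0.18 to 1.37, limma adjusted p = 1.00) did not pass over all genes. Per length APLN was above ADM in all 6 libraries, with exon lengths of 3205 bp for APLN and 2718 bp for ADM. The ADM length equals its whole annotated span, and a shorter spliced length would raise ADM and could change this order.

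**Figure D5:**
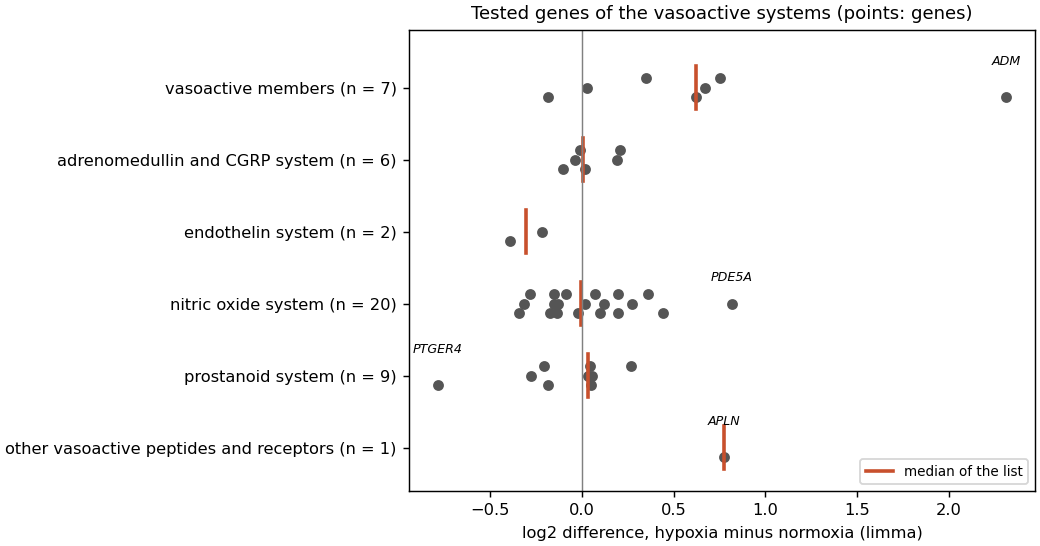
Log2 difference, hypoxia minus normoxia (limma), of every tested gene of the members and of the 5 further lists; points are genes, spread vertically only to separate them, and vertical bars are list medians. ADM stands apart at 2.31, the medians of the adrenomedullin and nitric oxide lists are at 0.00, and APLN is the single point of its list at 0.77.

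The genes whose levels followed ADM most closely over the 6 libraries, among 5284 protein-coding genes with a mean of at least 5 FPKM, were SLC2A3, DEPP1, HIGD2A and PFKFB4. The Pearson r on log2 levels was 0.998, 0.996, 0.992 and 0.990 over 6 libraries, given as a description because all libraries share the contrast of 2 oxygen levels. The glucose transporter gene SLC2A3 had a log2 difference of 2.28, close to that of ADM, with 11.9, 12.8 and 6.74 FPKM in normoxia and 32.7, 73.0 and 50.6 in hypoxia. Its paralog SLC2A14 is similar enough that reads may have been split. HIGD2A followed it over a much smaller span, 51.7 to 69.8 FPKM (log2 difference 0.34), and shares 227 bp of exon with NOP16 on the opposite strand. PFKFB4 differed by 3.62 and passed limma (adjusted p = 0.0236), and DEPP1 by 3.34 without passing (limma adjusted p = 0.0518). DEPP1 shares 695 bp of exon with RASSF4 on the opposite strand. RASSF4 had 87.9 to 101 size-factor-scaled reads in normoxia and 900 to 1394 in hypoxia. Whether the DEPP1 value holds some of these reads was not tested.

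For EDN1 the closest genes were HOXD8 (r = 0.995) and SLC5A3 (r = 0.978) over the same 6 libraries. HOXD8 covered only 6.45 to 8.08 FPKM, with a log2 difference of 0.20. SLC5A3, a sodium-coupled myo-inositol transporter, differed by 1.46 (limma adjusted p = 1.00) and shares 273 bp of exon with MRPS6 on the same strand. MRPS6 had 1167 to 1721 size-factor-scaled reads in normoxia and 1829 to 3674 in hypoxia. Whether the SLC5A3 value holds some of these reads was not tested.

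Positions of the whole genes are from GENCODE 29 (GRCh38), matched by identifier. ADM (ENSG00000148926) spans chr11:10304680-10307397 (plus strand), so the 29 bases of ADM shown above lie inside the annotated gene, which starts earlier there than in RefSeq. EDN1 (ENSG00000078401) spans chr6:12290363-12297194 (plus strand). CALCRL (ENSG00000064989) spans chr2:187343129-187448460 (minus strand). ECE1 (ENSG00000117298) and PTGS2 (ENSG00000073756) span chr1:21217247-21345572 and chr1:186671791-186680427 (both minus strand). NOS3 (ENSG00000164867) spans chr7:150990995-151014588 (plus strand), so the 29 bases of NOS3 shown above also lie inside the annotated gene. PTGS1 (ENSG00000095303) spans chr9:122370530-122395703 (plus strand), and PTGIS (ENSG00000124212) chr20:49503874-49568146 (minus strand).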

How the data were processed

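Polyadenylated RNA of 3 normoxia and 3 hypoxia libraries was measured. The submitters' processing notes list CASAVA, HISAT2 2.0.5 and featureCounts 1.5.0-p3 without order or settings, and a mouse build that cannot apply to human identifiers. No source used here gives the genome build, the annotation or the strand setting. The deposited signal, although its table is named for FPKM, is whole reads per gene divided by 1 size factor per library: 100% of values in each library were whole multiples of 1 step (tolerance 0.05 of a step). Reads were recovered by dividing by that step.

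The signal was divided by GENCODE 29 summed exon length and the mean library total to give an FPKM scale, since the test had been planned for FPKM. The 10237 genes that reached an FPKM of 1 in 3 libraries or more were fitted as log2(FPKM + 0.1) with limma 3.58.1 (trend, robust; R 4.3.3), group as the only term, two-sided, with Benjamini-Hochberg adjustment over all genes tested and a threshold of 0.05. Fold changes on this scale understate those of low genes. The limma fit was checked on simulated reads with changes of 2-fold, 4-fold and 8-fold. At the threshold it recovered 0%, 78.2% and 94.3% of them. A missing limma call for a difference of 2-fold or less, such as those of EDN1 and APLN, is therefore little information. Recovered reads were also tested with edgeR 4.0.16 (quasi-likelihood) and DESeq2 1.42.0. The edgeR test called 10 genes and DESeq2 50. Other alternatives were pseudocounts, filters, TMM scaling, no robust variances, removal of each library's loess trend on GC content, a replicate block and leaving out each library.

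Named genes were every member, up to 3 tested genes per list with the largest differences, any list gene past a threshold, and the 4 and 2 genes closest to ADM and EDN1. Members and lists were chosen with earlier results of these data known.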

Additional observations from a re-analysis of the deposited data

How the results depend on the processing

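The number of genes called higher in hypoxia was 10 and ranged from 1 to 19 when 1 library was left out. Without the filter on low values it was 3, and it was 45 by DESeq2 and 20 after the GC correction. The number called lower was 0 by limma and ranged from 0 to 1 with 1 library left out. It was 1 with a pseudocount of 1, with no filter, without robust variances and after the GC correction, and 5 by DESeq2. ADM passed by DESeq2 (log2 difference 2.36) and after the GC correction (2.31), and with 1 library left out it ranged from 2.003 to 2.64, with limma adjusted p from 0.0933 to 0.640. Leaving out 1 library turned the sign of some values that no fit called: ECE1 ranged from -0.35 to 0.30, MME from -0.30 to 0.66, PAM from -0.13 to 0.45, IDE from -0.53 to 0.50 and FURIN from -0.60 to 0.14. No sign turned for the other tested members or the other named pathway genes in any alternative.

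Same-numbered libraries did not deviate together: the correlations of their deviations from the group means were -0.40, 0.24 and 0.22, and normoxia replicate 1 correlated best with hypoxia replicate 2 (0.61). The numbers are therefore not treated as pairs. With the replicate block the count called higher was 19, and 28 with the GC correction and the replicate block together, with 2 lower. ADM passed in both (log2 difference 2.31, limma adjusted p = 0.00995 and 0.00178 with the replicate block), and no other member did. PTGS1, PTGS2 and PTGIS rest on 39 to 477 reads per library, which limits what could be detected.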
